A study of Homo sapiens with 6 samples.

Results

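The 10 genes CDA, DCTD, UCK1, UCK2, TK1, DCK, CMPK1, UPP1, TYMP and NT5C3A encode enzymes of pyrimidine salvage, and all 10 were found by symbol among the 27914 genes of the expression table. They were chosen by name around CDA, whose difference between the groups was already known from these data. The same contrast therefore chose the set, and the values of the 10 genes are given below as a description, with no p-value for any of them. RNA was sequenced from MCF10A, a line of immortalised human breast epithelial cells that forms no tumours, in 3 control libraries and 3 libraries labelled α-/-;βin. All 6 samples had received doxycycline for 3 days, controls included. The controls are named SCRin and carry the wild-type genotype. The labels expand none of these names; α and β were read as the PI5P4K enzymes encoded by PIP4K2A and PIP4K2B, since the series title names PI5P4K, and the second group is called PI5P4K-depleted here. Whether the depleted cells came from 1 clone, and whether replicates were separate cultures, is not stated in the labels. The tests can therefore speak only for the spread among these 6 libraries, part or all of which may be technical. Expression is in TPM, an abundance per transcript length scaled to a total of 1000000 in each library, and the read depth behind a value is unknown.

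Pyrimidine salvage recovers nucleosides from RNA and DNA turnover or from outside the cell, in place of building the ring anew. Kinases (UCK1 and UCK2 for uridine and cytidine, DCK and TK1 for deoxynucleosides) trap nucleosides as monophosphates. CMPK1 adds the next phosphate to UMP and CMP. Against this flow, phosphorylases (UPP1, TYMP) split nucleosides into base and sugar phosphate, and the nucleotidase NT5C3A removes the phosphate. Deaminases turn cytosine compounds into uracil compounds: CDA acts on cytidine and deoxycytidine, and DCTD on dCMP. CDA also inactivates cytidine analogue drugs such as cytarabine and gemcitabine.

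In PI5P4K-depleted cells, 3 of the 10 genes fell past the threshold of the fit over all genes, 0 rose and 7 did not pass. CDA fell to 11.7% of its control mean, UPP1 to 43.0% and NT5C3A to 56.9%. UPP1 and NT5C3A are neighbours of many other lowered genes on chromosome 7, whereas CDA stood alone among its neighbours on chromosome 1. The threshold was a Benjamini-Hochberg adjusted p of 0.05 in limma on log2(TPM + 1), over the 12096 genes that averaged 1 TPM or more; all 10 genes passed that filter. Among all tested genes, 1.83% were called lower and 0.364% higher. In 6 of the 10 genes all depleted libraries lay below all controls, as in 11.4% of all tested genes (17.1% without overlap in either direction). Because this contrast chose the genes, nothing is read from these counts. The median log2 difference was -0.14 over the 10 genes and -0.015 over all tested genes.

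**Figure D1:**
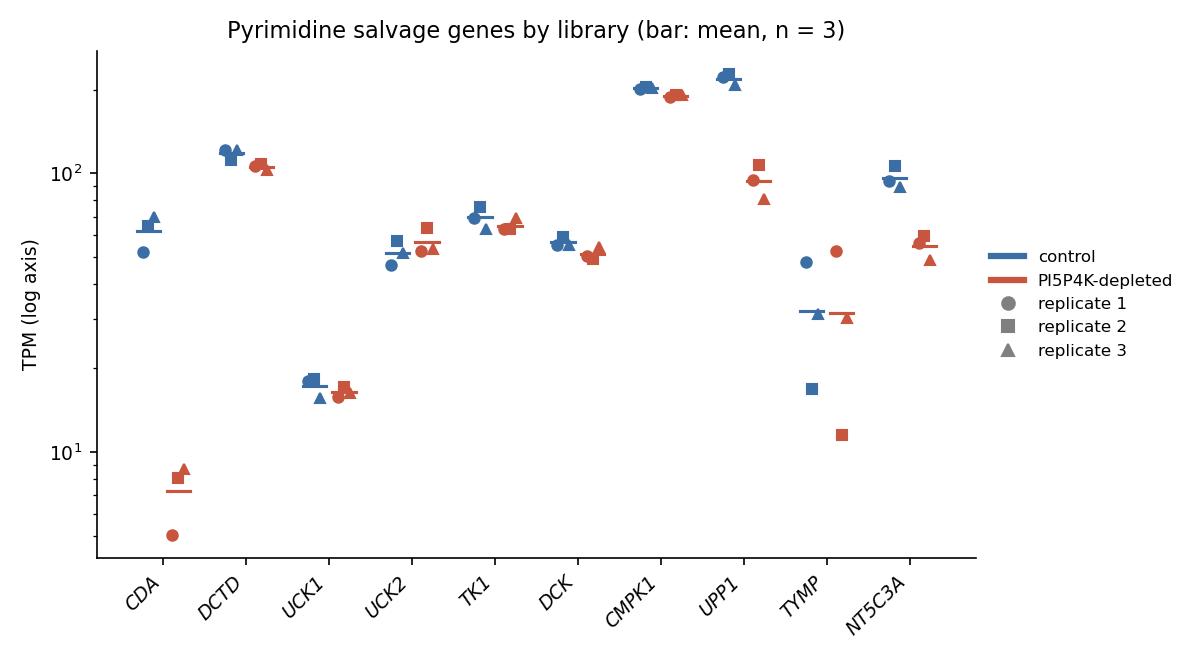
TPM of each salvage gene on a log axis, with 1 point per library (blue control, red PI5P4K-depleted, shape by replicate number) and a bar at the mean of 3. CDA lies between 52.1 and 69.7 TPM in the controls and between 5.02 and 8.69 TPM in the depleted libraries, and TYMP spreads more within each group than between them.

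The sequences before the starts of the 3 genes that fell are shown so that the starts of the genes that fell can be compared. Each is the 250 bases upstream of the first start listed by RefSeq (GRCh38.p14, not the authors' build), 5′ to 3′ on the gene's strand. Capitals mark matches, on either strand, to the GC box GGGCGG, the TATA box TATAAA, the CCAAT box CCAAT, the AP-1 site TGANTCA or the TEAD element GGAATG. TEAD proteins are the DNA-binding partners of YAP and TAZ, the coactivators at the end of the Hippo pathway named in the series title.
CDA, chr1:20588847-20589096, plus strand: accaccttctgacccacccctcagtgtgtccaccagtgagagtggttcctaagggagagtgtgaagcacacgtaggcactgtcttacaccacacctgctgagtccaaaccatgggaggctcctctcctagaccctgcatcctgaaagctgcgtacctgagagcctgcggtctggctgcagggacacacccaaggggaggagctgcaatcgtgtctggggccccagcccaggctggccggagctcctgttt
UPP1, chr7:48089004-48089253, plus strand: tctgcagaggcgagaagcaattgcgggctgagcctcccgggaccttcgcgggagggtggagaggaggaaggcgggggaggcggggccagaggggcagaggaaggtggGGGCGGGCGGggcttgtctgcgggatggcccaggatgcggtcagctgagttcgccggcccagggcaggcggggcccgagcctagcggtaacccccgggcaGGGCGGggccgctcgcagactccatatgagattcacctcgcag
NT5C3A, chr7:33062777-33063026, minus strand: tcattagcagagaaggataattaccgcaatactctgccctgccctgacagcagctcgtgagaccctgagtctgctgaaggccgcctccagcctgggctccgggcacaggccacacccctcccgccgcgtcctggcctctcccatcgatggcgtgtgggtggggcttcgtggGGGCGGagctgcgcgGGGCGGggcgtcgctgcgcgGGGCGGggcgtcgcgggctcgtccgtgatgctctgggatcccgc
The CDA window held none of the 5 motifs and was 60.4% G and C. The UPP1 window held 3 GC boxes, of which the pair at 143 to 138 and 139 to 134 bases before the start overlap, and was 71.6% G and C. The NT5C3A window held 3 GC boxes and was 70.0% G and C. Windows of the other members were searched in the same way: 7 of the 10 held a GC box, 2 a CCAAT box (UCK2 and TYMP), 1 a TATA box (TK1), 1 a TEAD element (CMPK1) and 0 an AP-1 site. Of 27305 genes with such a window, 42.3% held a GC box, 33.0% a CCAAT box, 11.1% a TATA box, 11.9% a TEAD element and 6.60% an AP-1 site. RefSeq lists 1 start for CDA, 3 for UPP1 and 2 for NT5C3A, and the further starts were not searched. A match, or its absence, describes the letters of these windows only.

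CDA, the cytidine deaminase, had the lowest relative level of the set in depleted cells. Control replicates 1 to 3 measured 52.1, 64.6 and 69.7 TPM, and depleted replicates 1 to 3 measured 5.02, 8.06 and 8.69 TPM. All controls lay far above all depleted libraries, the lowest control at 6.0 times the highest depleted value. The means were 62.1 ± 9.07 and 7.25 ± 1.96 TPM (SD, n = 3), an 8.57-fold difference. On the log2 scale the difference was -2.96 (SE 0.20, 95% interval -3.44 to -2.47), the 11th lowest of 12096 genes. The call held under each of the 16 alternative settings, with differences between -3.11 and -2.74. The log2 values of CDA varied within groups by an SD of 0.30, which was wider than in 79.3% of tested genes.

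DCTD, which deaminates dCMP to dUMP and so feeds thymidylate synthesis, kept close to its control level. It measured 122, 112 and 121 TPM in controls and 107, 108 and 102 TPM in depleted libraries, so the groups did not overlap but lay close together. Its mean was 89.5% of control, with a log2 difference of -0.16 (SE 0.08, 95% interval -0.34 to 0.03), and it was not called. The ratio of CDA to DCTD, both in TPM, was 0.527 ± 0.0861 in controls and 0.0688 ± 0.0195 in depleted libraries (SD, n = 3). The ratio of CDA to DCK, the kinase that competes with CDA for deoxycytidine, was 1.10 ± 0.162 and 0.141 ± 0.0363. In controls the CDA and DCK transcripts thus stood at similar levels, and in depleted cells CDA stood well below DCK in each library.

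**Figure D2:**
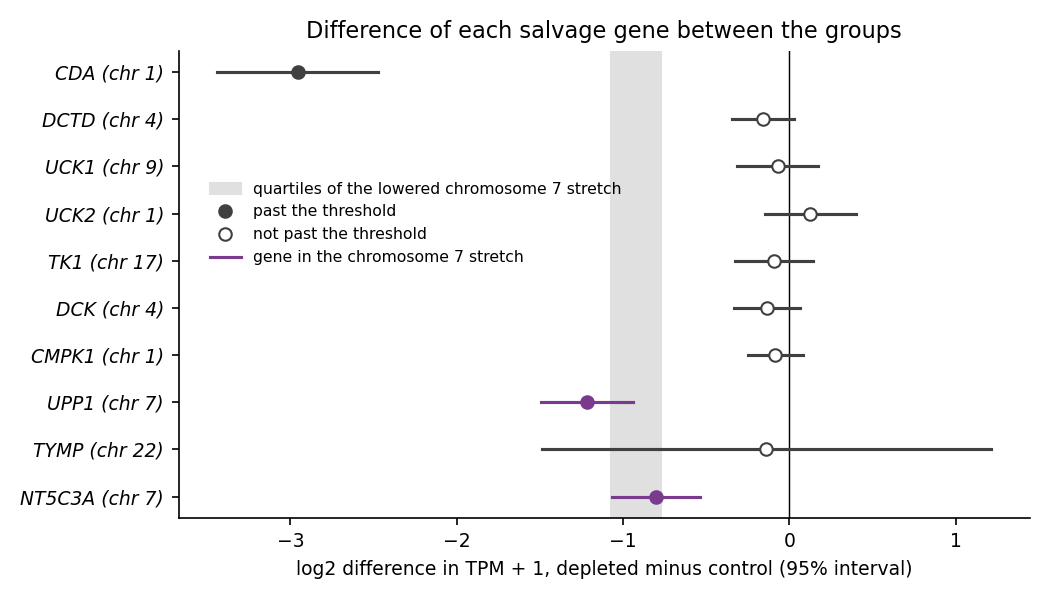
Log2 difference (depleted minus control) of each salvage gene with its 95% interval; filled points passed the threshold, purple marks genes in the lowered chromosome 7 stretch and the grey band gives the quartiles of that stretch. CDA at -2.96 lies far left of the band, UPP1 and NT5C3A lie at or near it, and the other genes lie around 0.

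UPP1, the uridine phosphorylase that splits uridine into uracil and ribose-1-phosphate, was the most abundant transcript of the set in every control and ranked 3 in every depleted library. It measured 222, 228 and 208 TPM in controls and 94.8, 107 and 80.8 TPM in depleted libraries, with no overlap. The means were 219 ± 10.3 and 94.3 ± 13.2 TPM (SD, n = 3), and the log2 difference was -1.22 (SE 0.12, 95% interval -1.49 to -0.94). NT5C3A, a nucleotidase that dephosphorylates CMP and UMP, measured 94.2, 106 and 89.1 TPM in controls and 56.2, 59.8 and 48.7 TPM in depleted libraries. Again each depleted library lay below each control. Its means were 96.5 ± 8.71 and 54.9 ± 5.66 TPM, and its log2 difference was -0.80 (SE 0.11, 95% interval -1.07 to -0.54). The UPP1 call held under all 16 alternatives, while the NT5C3A call was lost without control replicate 3 (log2 difference -0.86), without depleted replicate 1 (-0.82) and without depleted replicate 3 (-0.72).

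Both genes lie in a stretch of chromosome 7, from FAM20C through CHCHD2 in RefSeq gene order, in which earlier work on these data had found most genes lowered. Of its 196 tested genes, 128 (65.3%) were called lower and 0 were called higher. The stretch had a median log2 difference of -0.91 (quartiles -1.07 and -0.77). Counted from the lowest difference, UPP1 ranked 16 of 196 and NT5C3A 140 of 196. The interval of UPP1 ended just below the median of the stretch, and that of NT5C3A contained it. In linear terms, the 133 genes of the stretch with at least 20 TPM in controls had a median of 51.1% of control (quartiles 46.2% and 55.9%), against 43.0% for UPP1 and 56.9% for NT5C3A. The other 8 salvage genes lie outside this stretch and outside a similar one on chromosome 3. CDA was the only one of those 8 that was called, and of all tested genes outside both stretches 0.482% were called lower. The set was chosen around CDA with its difference known, so nothing is read from setting these side by side.

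The nearest genes of each member are described in the same way, again with nothing read from setting them side by side. The neighbours of UPP1 and NT5C3A come from the stretch already known to be lowered in these data. Of the 10 tested genes nearest to CDA, 5 on each side, 0 were called, with log2 differences between -0.54 and 0.18 and a median of 0.032. MUL1 and PINK1, which flank CDA, were named after their values were seen and encode proteins of mitochondrial quality control. They averaged 33.8 and 67.3 TPM in controls against 34.3 and 76.7 TPM in depleted cells. Of the 10 genes nearest to UPP1, 5 were called lower and 0 higher, with log2 differences between -1.27 and 1.42 (median -0.97). The called genes were TNS3, HUS1, FIGNL1, SEC61G and EGFR, with log2 differences from -1.27 for SEC61G to -0.96 for HUS1. Of the 10 nearest to NT5C3A, 6 were called lower and 0 higher, with log2 differences between -1.13 and -0.25 (median -0.93). Those called were KBTBD2, FKBP9, RP9, DPY19L1, HERPUD2 and SEPT7, with differences from -1.13 for SEPT7 to -0.81 for KBTBD2. RP9 and SEPT7 have pseudogene copies nearby, so their reads are uncertain. Calls of FKBP9, RP9 and HERPUD2 were lost without control replicate 3 (-0.98, -0.87 and -1.04), and that of RP9 also without depleted replicate 3 (-0.91). Around the other 7 salvage genes, 1 of the 10 neighbours of DCK was called and 0 of the neighbours of the remaining genes. SULT1E1, an oestrogen sulfotransferase near DCK, rose from 0.475 ± 0.0929 to 3.79 ± 0.827 TPM (log2 difference 1.68), and its call was lost without control replicate 3 (1.66), without depleted replicate 2 (1.66) and without depleted replicate 3 (1.57).

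**Figure D3:**
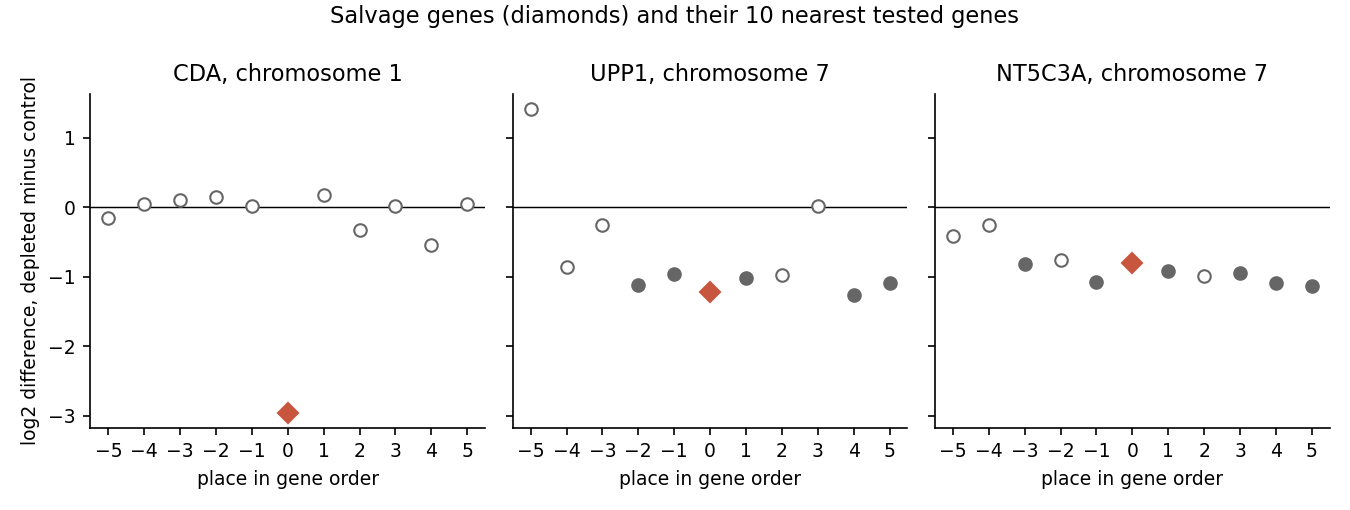
Log2 difference of CDA, UPP1 and NT5C3A (diamonds) and of the 5 nearest tested genes on each side in gene order (circles, filled where called); the horizontal axis counts places in gene order. The neighbours of CDA lie between -0.54 and 0.18, while most neighbours of UPP1 and NT5C3A lie near the genes themselves.

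The salvage kinases kept near their control levels. CMPK1, the kinase that turns UMP and CMP into diphosphates, was the steadiest: its within-group SD on the log2 scale, 0.0127, was the lowest of all 12096 tested genes. It measured 200.5, 204 and 202 TPM in controls and 188, 192 and 191 TPM in depleted libraries. The groups did not overlap, yet differed by only -0.09 on the log2 scale (95% interval -0.25 to 0.08), and the gene was not called. The fit moves so small an SD towards that of genes of similar level, which gave an SE of 0.07. RefSeq names 2 pseudogenes of CMPK1 and 2 of NT5C3A, so reads shared with such copies may have been divided. DCK, which phosphorylates deoxycytidine and activates several nucleoside drugs, measured 55.3, 59.2 and 55.1 TPM in controls and 50.7, 49.3 and 54.2 TPM in depleted libraries. These groups also lay apart by a narrow margin, with a log2 difference of -0.14 (95% interval -0.33 to 0.06).

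TK1, the cytosolic thymidine kinase made mainly in S phase, measured 69.3, 76.0 and 63.1 TPM in controls and 63.1, 62.9 and 68.9 TPM in depleted libraries, and the groups overlapped (log2 difference -0.09, 95% interval -0.33 to 0.14). UCK2, the uridine-cytidine kinase with the higher catalytic efficiency, measured 46.7, 57.0 and 51.8 TPM in controls and 52.5, 63.5 and 53.7 TPM in depleted libraries. It was the only member with a mean above control, by 0.12 on the log2 scale (95% interval -0.15 to 0.40), and its groups overlapped. UCK1, its paralogue, measured 17.99, 18.2 and 15.6 TPM in controls and 15.8, 17.1 and 16.3 TPM in depleted libraries, also with overlap (log2 difference -0.07, 95% interval -0.31 to 0.17). The ratio of UCK2 to UCK1 was 3.01 ± 0.371 in controls and 3.45 ± 0.233 in depleted libraries (SD, n = 3), and its ranges overlapped as well. Across the 5 kinases and DCTD the intervals ran from -0.34 to 0.40, and none of these genes passed under any alternative.

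The order of the transcripts within a library shows the shift. In each control UPP1 ranked 1, CMPK1 2, DCTD 3 and NT5C3A 4, and the bottom places were held by UCK1, TYMP and UCK2. In each depleted library CMPK1 ranked 1, DCTD 2 and UPP1 3. CDA ranked 7, 6 and 5 of 10 in control replicates 1 to 3, next to TK1 and DCK, and its control range overlapped with those of TK1, DCK and UCK2. It ranked 10 of 10 in every depleted library, below UCK1 and TYMP without overlap. NT5C3A moved from place 4 to places 5, 6 and 7. In both groups the summed level of the 8 genes outside the chromosome 7 stretch varied little between libraries, at 607 to 612 TPM in controls and 512 to 535 TPM in depleted cells.

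TYMP, the thymidine phosphorylase also known as platelet-derived endothelial cell growth factor, varied within groups rather than between them. It measured 47.9, 16.7 and 31.2 TPM in controls and 52.8, 11.5 and 30.2 TPM in depleted libraries. Replicate 2 was lowest and replicate 1 highest in both groups, and the highest library stood at 2.86 times the lowest in controls and 4.61 times in depleted cells. The means, 32.0 ± 15.6 and 31.5 ± 20.7 TPM (SD, n = 3), were close. In the main fit, which ignores replicate numbers, the interval of the log2 difference ran from -1.49 to 1.21 around -0.14 (SE 0.57). That interval spans more than a 2-fold change in either direction. With the replicate number as a block, TYMP had the same difference with an SE of 0.13 and was again not called. Its within-group SD of 0.92 on the log2 scale was wider than that of 97.5% of tested genes, and the sign of its difference changed with single libraries, to 0.20 without control replicate 1 and 0.43 without depleted replicate 2. The labels do not say that equal replicate numbers mark a shared culture or day. SCO2, a mitochondrial copper chaperone gene that overlaps TYMP, measured 22.3, 30.4 and 32.7 TPM in controls and 31.9, 33.8 and 25.9 TPM in depleted libraries and did not show this order.

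Genes that followed TYMP across the 6 libraries were looked up after its values were seen. Among 9719 genes averaging 5 TPM or more, the 5 with the highest Pearson correlation on the log2 scale were NXT2 (r = 0.9998), NEBL (0.991), KLF6 (0.990), PTK2 (0.990) and CTSB (0.989), each over 6 libraries that share the same groups. KLF6, a zinc finger transcription factor, measured 131, 80.7 and 117 TPM in controls and 147, 64.9 and 104 TPM in depleted libraries. APOBEC3B, a DNA cytosine deaminase from a list described below, was also lowest in replicate 2 of both groups, at 8.18, 3.21 and 8.73 TPM and 9.48, 3.04 and 7.33 TPM (r = 0.94). CCNB1, the mitotic cyclin B1, ran the opposite way with 103, 280 and 208 TPM in controls and 116, 260 and 202 TPM in depleted libraries (r = -0.90). TK1 did not follow either pattern (r = -0.15 with TYMP). These correlations describe 6 libraries and carry no test.

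**Figure D4:**
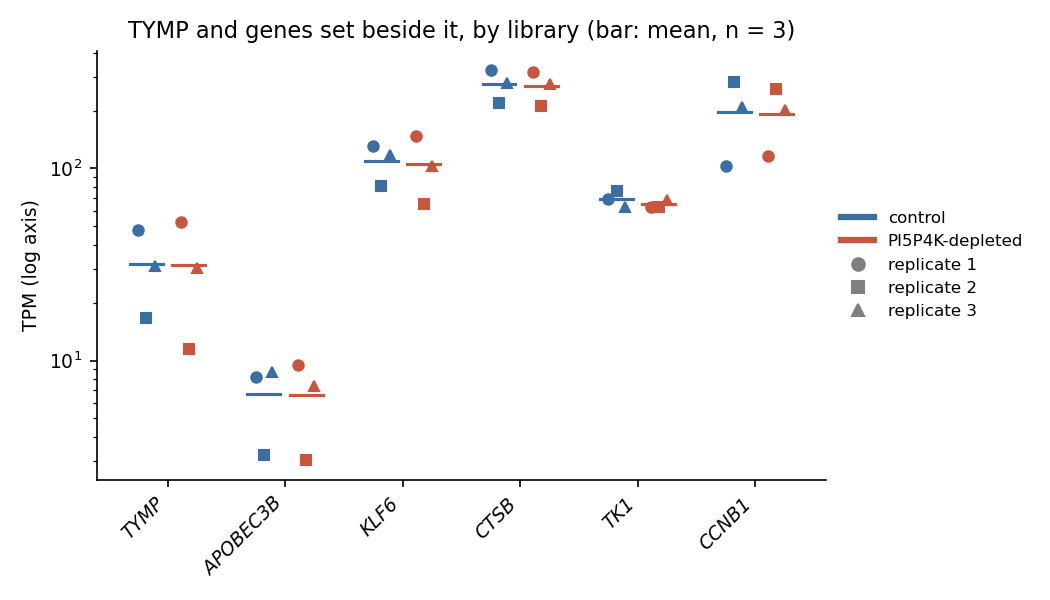
TPM on a log axis for TYMP and genes set beside it after its values were seen, with 1 point per library and a bar at the mean of 3 (blue control, red PI5P4K-depleted). In both groups replicate 2 (squares) is lowest for TYMP, APOBEC3B, KLF6 and CTSB and highest for CCNB1, while TK1 stays between 62.9 and 76.0 TPM.

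The genes most like CDA by the same measure were TWIST1, CHCHD2, MALSU1, PLEKHA2 and CCZ1, with a Pearson r of 0.996 to 0.998 over the 6 libraries. All 5 were called lower, so their likeness mostly repeats the difference between the groups. Of these, 4 lie in the chromosome 7 stretch and PLEKHA2 does not. That stretch holds 128 of the 221 genes called lower, so nothing is read from this count. TWIST1, a mesenchymal transcription factor, measured 31.8, 34.4 and 34.0 TPM in controls and 13.3, 16.8 and 16.1 TPM in depleted libraries, so that, as for CDA, replicate 1 was lowest in each group. PLEKHA2, a phosphoinositide-binding adaptor, fell from 23.7 ± 0.783 to 14.3 ± 0.809 TPM (SD, n = 3), a log2 difference of -0.69. Its call was lost without control replicate 3 (-0.67), without depleted replicate 1 (-0.65), without depleted replicate 2 (-0.70) and without depleted replicate 3 (-0.73). CCZ1 has a near-identical copy on chromosome 7, so its reads are uncertain.

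Genes of the surrounding nucleotide pathways did not pass the threshold in the main fit. With the replicate number as a block, 4 of them passed as higher, CTPS1, NME2 and APOBEC3C among them. Over 8 lists with 58 genes in all, 40 genes were tested, and the main limma fit called 0 of them. With an unadjusted limma p under 0.05 there were 3 lower and 2 higher genes. The median log2 difference of the 40 genes was -0.014, against -0.015 over all tested genes. In de novo pyrimidine synthesis, the route that salvage bypasses, 0 of 5 genes passed (median 0.0024). CTPS1, the CTP synthase and the most abundant of them, averaged 86.6 ± 13.3 TPM in controls and 104 ± 13.1 TPM in depleted cells (SD, n = 3; log2 difference 0.26, 95% interval -0.08 to 0.60). DHODH, the mitochondrial enzyme of that route, was named after its values were seen and measured 2.58, 4.30 and 3.78 TPM in controls and 4.87, 6.19 and 5.14 TPM in depleted libraries, without overlap (log2 difference 0.50, adjusted p = 0.364 by limma). CTPS2, also named after its values were seen, went the other way. It averaged 11.9 ± 1.38 and 9.38 ± 0.803 TPM, also without overlap (log2 difference -0.32, adjusted p = 0.385 by limma). With an unadjusted limma p under 0.05, this list held 1 lower and 1 higher gene. Of the other salvage enzymes, 0 of 5 tested passed (median -0.14), with DGUOK, mitochondrial deoxyguanosine kinase, at 104 ± 10.6 and 98.0 ± 13.9 TPM.

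Genes that supply deoxynucleotides gave 0 calls among 13 (median -0.0010). NME2, a nucleoside diphosphate kinase, measured 1523 ± 41.1 and 1764 ± 51.0 TPM (log2 difference 0.21, 95% interval 0.03 to 0.39, limma adjusted p = 0.334); it shares a read-through transcript with NME1, so reads may be divided between them. Of the other nucleotidases 0 of 5 tested passed (median -0.03), and NT5E, the cell surface nucleotidase CD73, measured 438 ± 34.4 and 421 ± 22.6 TPM. NT5C3B, the paralogue of NT5C3A and chosen after its values were seen, lies outside the stretches and measured 43.9 ± 5.69 and 46.9 ± 4.88 TPM. DPYD, which starts the breakdown of uracil and thymine, measured 12.1 ± 4.43 and 11.4 ± 3.30 TPM; the later steps DPYS and UPB1 reached at most 0.239 and 0.329 TPM in any library. Nucleoside transporters gave 0 calls among 3 tested (median 0.29), with SLC29A1, the equilibrative transporter ENT1, at 52.1 ± 10.96 and 56.9 ± 14.2 TPM.

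Among the APOBEC cytosine deaminases, APOBEC3C had the highest level, and APOBEC3B, the next, averaged 6.71 TPM in controls and 6.62 TPM in depleted cells. These genes gave 0 calls among 3 tested of 10 (median 0.11), and APOBEC3C, the most abundant, measured 28.8, 41.8 and 32.6 TPM in controls and 36.9, 72.3 and 44.0 TPM in depleted libraries (log2 difference 0.52, 95% interval -0.09 to 1.12). APOBEC1, APOBEC2 and APOBEC3A were listed at 0 in every library. Purine salvage gave 0 calls among 5 tested (median -0.00016), with APRT, the adenine salvage enzyme, at 247 ± 35.7 and 246 ± 20.7 TPM. MTAP, which lies in the 9p21 region known to be deleted in MCF10A, reached at most 0.141 TPM in any library. S phase and mitosis genes gave 0 calls among 15 (median -0.010; with an unadjusted p under 0.05, 2 lower genes and 0 higher), and PCNA, the replication clamp, measured 428 ± 26.5 and 425 ± 29.1 TPM.

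**Figure D5:**
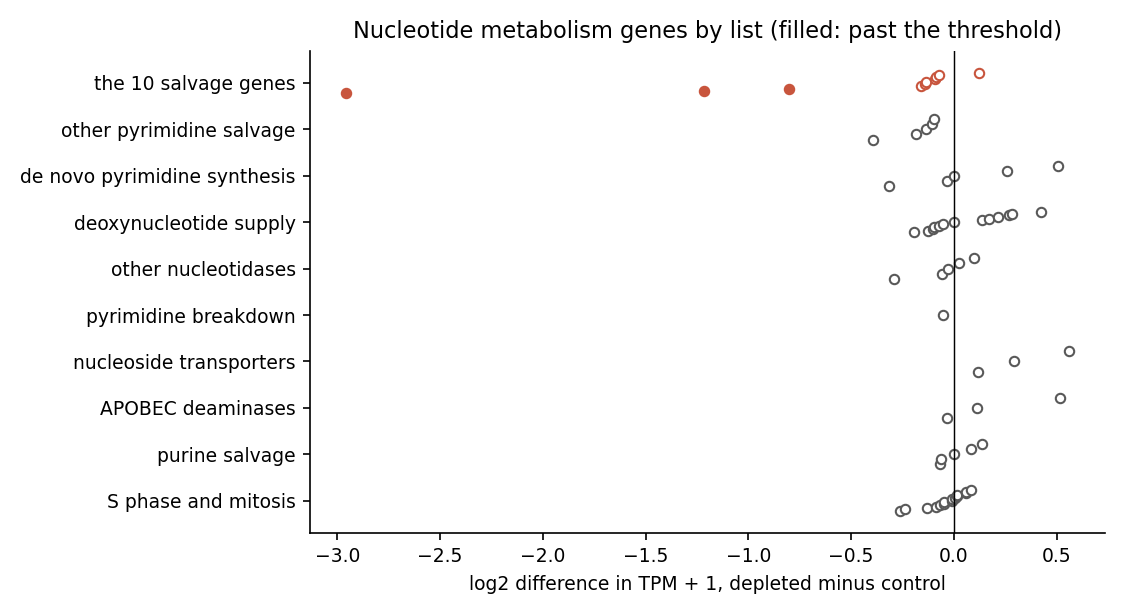
Log2 difference (depleted minus control) of each tested gene in the salvage set and in 9 lists of related genes, 1 circle per gene, filled where called. The 3 filled points are CDA, UPP1 and NT5C3A, and the genes of the other lists lie between -0.39 and 0.56.

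The labels were checked on the targeted genes and on markers. PIP4K2A averaged 20.6 and 4.20 TPM, and PIP4K2B 21.8 and 9.49 TPM, in controls and depleted libraries, without overlap (exact two-sided permutation p = 0.1 for each, the smallest that 3 against 3 allows). PIP4K2C, which encodes the remaining enzyme of the family and is not named in the labels, had the highest level of the 3 in both groups, with means of 43.1 and 34.0 TPM; its groups overlapped and it was not called (log2 difference -0.34, exact two-sided permutation p = 0.2). The 9 basal breast epithelial markers were all expressed and 0 were called (median log2 difference 0.49; with an unadjusted p under 0.05, 4 higher genes and 0 lower); their summed level was 3935 to 7696 TPM in controls and 4202 to 7130 TPM in depleted libraries. CDA is known to be high in granulocytes, and of 9 blood cell markers, PTPRC, FCGR3B and S100A12 were listed at 0 in all 6 libraries. The blood list summed to 3.18 to 7.37 TPM in controls and 8.38 to 10.8 TPM in depleted libraries, most of it CD14. CD14 averaged 4.43 ± 1.69 and 8.12 ± 1.24 TPM, without overlap, and was not called (log2 difference 0.79, limma adjusted p = 0.264). The 8 stromal and endothelial markers summed to 2.01 to 6.53 TPM and 2.81 to 6.21 TPM. In bulk RNA, fewer cells with a transcript and less of it per cell cannot be told apart.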

How the data were processed

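The authors deposited 1 table of TPM for 27914 genes in 6 MCF10A libraries; each TPM column summed to 1000000. The submitters' processing notes name the build hg19. How reads were aligned, quantified and filtered, and whether strand was kept, is not stated. Control columns matched their samples by name; columns headed as the experiment were assigned to the remaining group by replicate number.

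From the table, log2(TPM + 1) was fitted for the 12096 genes (43.3%) that averaged 1 TPM or more, with limma 3.58.1 in R 4.3.3 (empirical Bayes, mean-variance trend, two-sided, Benjamini-Hochberg, threshold 0.05), 3 against 3 samples. The fit was tested on simulated data. The fold on this scale understates changes of low genes. Gene order and promoters came from RefSeq (GRCh38.p14), which placed 11969 of the 12096 tested genes. A planned comparison of proteins was not made, and 2 genes of the fixed lists are not reported here.

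The members and lists were chosen with earlier results of these data known. Named genes were the 10 members, the targeted genes, called genes of each list or else its most abundant gene, called neighbours among the 5 nearest on each side, and the 5 genes most correlated with CDA; others are said to be chosen after their values were seen. Altogether 16 alternative settings were run.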

Additional observations from a re-analysis of the deposited data

How the results depend on the processing

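Of 160 values (10 salvage genes under 16 alternatives), 155 kept their direction and their side of the threshold, 3 lost a call (NT5C3A, with a library left out) and 2 changed sign (TYMP, -0.62 to 0.43 with single libraries left out). The count of salvage genes called was 2 or 3 lower and 0 higher throughout. Over all genes, 221 were lower and 44 higher, against 91 to 189 lower and 13 to 30 higher with 1 library left out. The labels do not say whether the replicate numbers pair the samples, and the values match by number only in part. Deviations of equal numbers correlated at 0.25, 0.27 and -0.02 for replicates 1 to 3. Control replicate 1 with depleted replicate 2 gave -0.24, and control replicate 2 with depleted replicate 1 gave -0.29. Control replicate 3 correlated best with depleted replicate 1, at only 0.05. With the replicate number as a block, 597 genes were lower and 284 higher, and 4 genes of the other nucleotide lists passed as higher (CTPS1, RRM2B, NME2 and APOBEC3C, the second named after the calls were seen); the block changed no call of a salvage gene. With 1 library left out, PIP4K2B stood between -1.27 and -1.04 and lost its call without control replicate 3 (-1.14, limma adjusted p = 0.0602, with a range of 0.00595 to 0.0602 across the settings). Uncalled genes near 0 changed sign. With 1 library left out, DGUOK ran from -0.17 to 0.024, DPYD from -0.26 to 0.21, SLC29A1 from -0.056 to 0.32, APRT from -0.11 to 0.10 and PCNA from -0.066 to 0.036. Under quantile normalization, median-ratio scaling and the same scaling without chromosomes 3 and 7, APRT stood at 0.014, 0.027 and 0.018 and PCNA at 0.042, 0.017 and 0.0076. The median of all genes stayed between -0.059 and 0.023. TPM keeps no depth, so counting error is unknown.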
